A study of Mus musculus with 17 samples.

Results

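Drugs, steroids, bile acids and reactive lipids leave the liver largely as conjugates, and the genes described here encode 3 families of the enzymes that make them. The UDP-glucuronosyltransferases (UGT), the cytosolic sulfotransferases (SULT) and the glutathione S-transferases (GST) were taken as every non-control array probe whose gene name begins with Ugt or Sult and a digit, or with Gst, a class letter (a, k, m, o, p, s, t or z) and a digit. The rule found 73 probes for 53 genes (15 UGT, 17 SULT and 21 GST genes) among 31791 gene names on the array. Of these, 48 genes (15 UGT, 13 SULT and 20 GST) were well above background on at least 2 of the 17 arrays and could be tested. The other 5 were Gstt4, Sult1c1, Sult2a3, Sult3a1 and Sult6b1, each well above background on at most 1 array.

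RNA came from mice that carried Foxl1-Cre, a Cre recombinase driven by the gene of a forkhead transcription factor that is switched on in liver progenitor cells, and a Rosa26 reporter of yellow fluorescent protein that Cre turns on permanently, and all 5 groups shared this genotype. The mice were 6 to 10 weeks old. The groups were progenitors differentiated in culture into hepatocytes (the hepatocyte condition, n = 4 arrays), progenitors differentiated in culture into cholangiocytes, the lining cells of bile ducts (the cholangiocyte condition, n = 3), undifferentiated adult hepatic progenitor cells (n = 4), primary hepatocytes (n = 4) and, with n = 2, primary cholangiocytes. The stated question was how the cells differentiated in culture compare with primary cells. The labels do not say whether arrays of a group came from separate animals or cultures, whether the progenitors were 1 clone, or whether primary cells were chosen by the reporter, so the spread behind each p-value is that of these arrays and may be technical.

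As background, a UGT sits in the endoplasmic reticulum and joins glucuronic acid from UDP-glucuronic acid to its substrate. A SULT works in the cytosol and transfers sulfate from the donor PAPS. A GST joins glutathione to electrophiles such as lipid peroxidation products. Mature hepatocytes are known for high levels of many of these enzymes, while GST genes of the alpha class are also known as targets of NRF2 (Nfe2l2), a transcription factor of the oxidative stress response.

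A value below is the log2 intensity of a probe relative to the 75th percentile of its array, so 0 is that percentile and each unit is a doubling; because probes differ in brightness, levels are compared between groups and never between genes. A difference is in the same log2 units with its standard error, and a gene is said to pass where limma's p, adjusted by Benjamini-Hochberg over all 32305 probes tested, was under 0.05. The 75th percentile of raw intensity was 544 to 983 in primary hepatocytes and 1741 to 2848 on the other 13 arrays, and 23896 to 29227 probes an array were well above background. The mean level of 13 hepatocyte markers ran between -3.24 and 2.51 in the hepatocyte condition, against 7.18 to 7.73 in primary hepatocytes, where all 13 were well above background, and 12 of them were lower in the hepatocyte condition. Albumin (Alb) was at 7.63, -4.75, 7.58 and -3.65 on its arrays 1 to 4, so 2 of these arrays stand apart from the other 2. Of 13 cholangiocyte markers, all were well above background in primary cholangiocytes, and 11 to 13 were on arrays of the cultured groups. In primary hepatocytes 7 to 10 were. Their mean level was -1.72 to -1.33 in the cholangiocyte condition and -2.08 to -1.44 in undifferentiated cells. It was 1.05 and 1.23 in primary cholangiocytes and -4.48 to -3.97 in primary hepatocytes. In the cholangiocyte condition 0 rose and 0 fell against undifferentiated cells, and 2 rose and 5 fell against primary cholangiocytes. Krt19 was between 3.79 and 5.17 in the hepatocyte condition.

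The mean levels of the UGT and GST families were highest on the primary hepatocyte arrays, with no overlap with any other array. The mean over the 15 UGT genes was -4.21 to -2.65 in the hepatocyte condition, -3.60 to -3.31 in the cholangiocyte condition and -5.13 to -3.46 in undifferentiated cells, against 3.40 to 3.68 in primary hepatocytes and -5.63 and -4.52 in primary cholangiocytes. The mean over 20 GST genes was between 0.35 and 1.71 in the hepatocyte condition, against 4.34 to 4.78 in primary hepatocytes, and at most 2.11 on the remaining arrays. The SULT genes followed another order: 2 arrays of the hepatocyte condition, at -1.58 and -1.98, lay above the 4 primary hepatocyte arrays, at -2.78 to -2.35. That order came from Sult2a1, Sult2a2, Sult2a4 and Sult2a6, whose probes are alike: over the other 9 SULT genes, a choice made after the values were seen, the mean was -3.39 to -1.90 in the hepatocyte condition and -0.43 to -0.21 in primary hepatocytes. In bulk RNA, fewer cells of a type and less RNA per cell cannot be told apart.

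**Figure D1:**
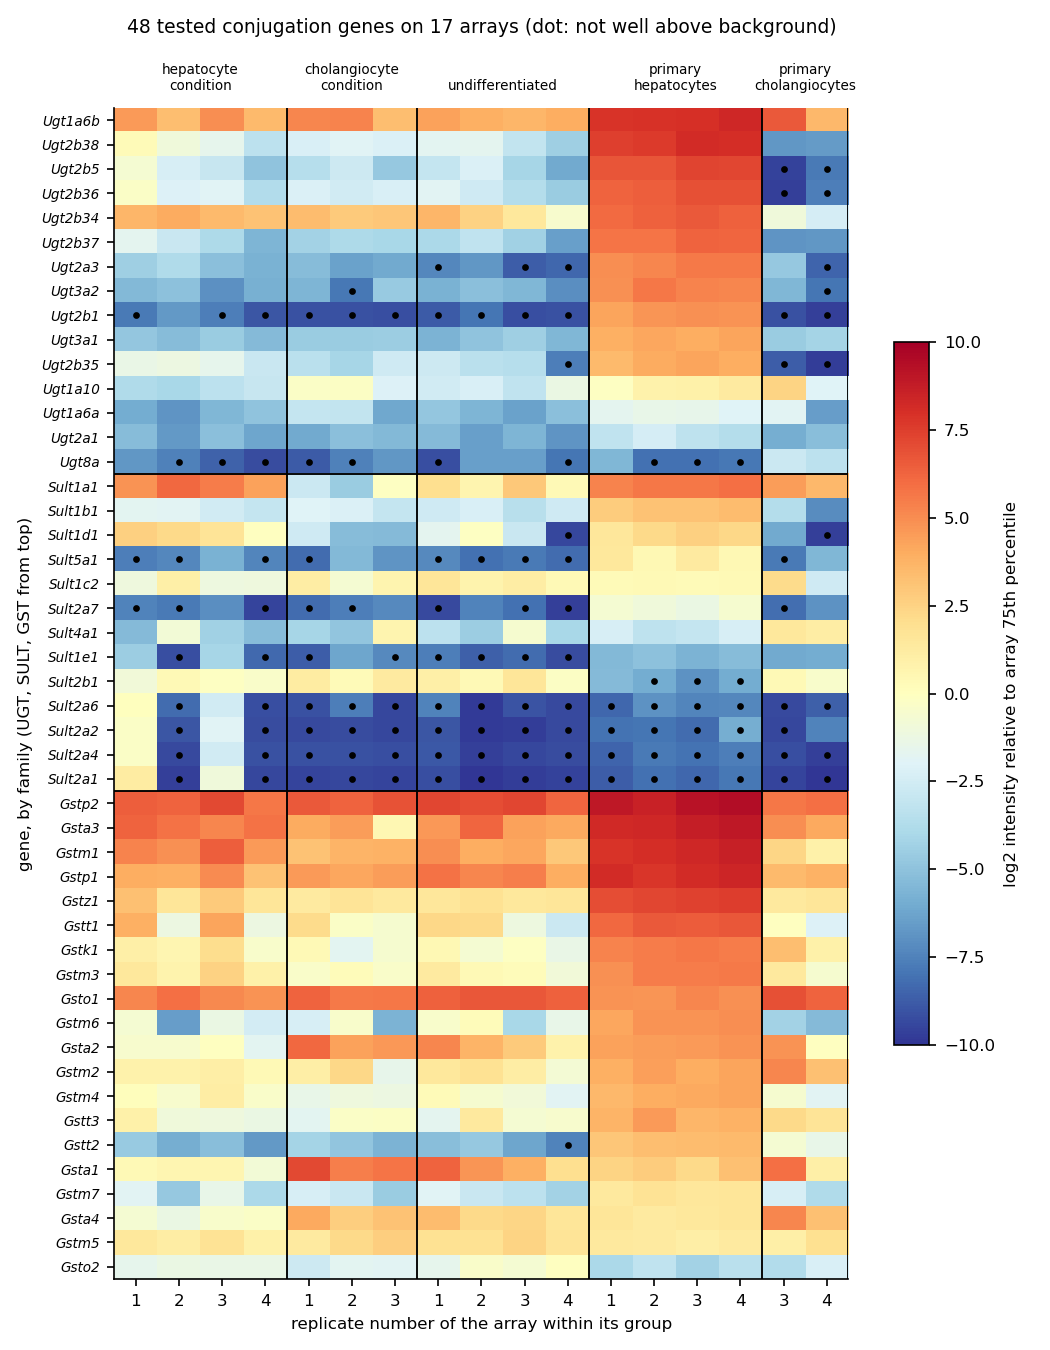
Log2 intensity relative to the array's 75th percentile (colour) of the 48 tested genes (rows, by family and by their mean in primary hepatocytes) on 17 arrays (columns, by group and replicate number); a dot marks a probe not well above background. UGT genes form a block of high values in primary hepatocytes. By the probe counted for each gene, Sult2a1, Sult2a2, Sult2a4 and Sult2a6 are bright on arrays 1 and 3 of the hepatocyte condition. They are at background in primary hepatocytes.

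By count, the families separated by comparison. Between the hepatocyte condition and primary hepatocytes, 14 of 15 UGT genes and 17 of 20 GST genes were lower in the hepatocyte condition, as were 3 of 13 SULT genes; over all gene names tested 33.7% were lower and 26% higher. The family medians were -8.63 for UGT, -0.54 for SULT and -3.91 for GST, against -0.33 for all genes. Markers of other cells moved with this comparison: all 7 endothelial markers, 9 of 11 leukocyte and Kupffer cell markers and both red blood cell markers tested were lower in the hepatocyte condition. In the hepatocyte condition 1 leukocyte and Kupffer cell marker was higher, and 1 of 6 stellate and fibroblast markers was lower. The mean endothelial level was -6.14 to -5.50 there, against -1.78 to -1.21 in primary hepatocytes, and the mean red blood cell level -8.07 to -6.43, against 0.64 to 1.71. Their part in the differences was not tested. Between the hepatocyte condition and undifferentiated cells, 2 UGT and 2 SULT genes rose and 4 GST genes fell of 48, with 7.8% of all gene names rising and 7.91% falling. Those shares are close to the 8.33% of members in each direction. Between the cholangiocyte condition and undifferentiated cells, 1 of 48 genes passed, Sult1a1, which fell, with 0.764% of all gene names rising and 0.588% falling. Unadjusted p was under 0.05 for 6 of the 48 there.

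Counted instead by arrays that did not overlap between groups, the members of the hepatocyte condition lay wholly above undifferentiated cells for 3 genes and wholly below for 4, where 9.6% and 11.4% of all gene names did. The cholangiocyte condition lay above undifferentiated cells for 1 member and below for 3 (8.83% and 4.57% of all). The hepatocyte condition lay above primary hepatocytes for 2 and below for 34 (25.6% and 30.7%), and the cholangiocyte condition above primary cholangiocytes for 11 and below for 9 (26% and 15.9%). The hepatocyte condition lay above the cholangiocyte condition for 9 and below for 4 (11% and 16.8%), and primary hepatocytes above primary cholangiocytes for 34 and below for 5 (34.8% and 25.6%). Those 34 include Sult2a1, Sult2a4 and Sult2a6, which were well above background on no array of either primary type.

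**Figure D2:**
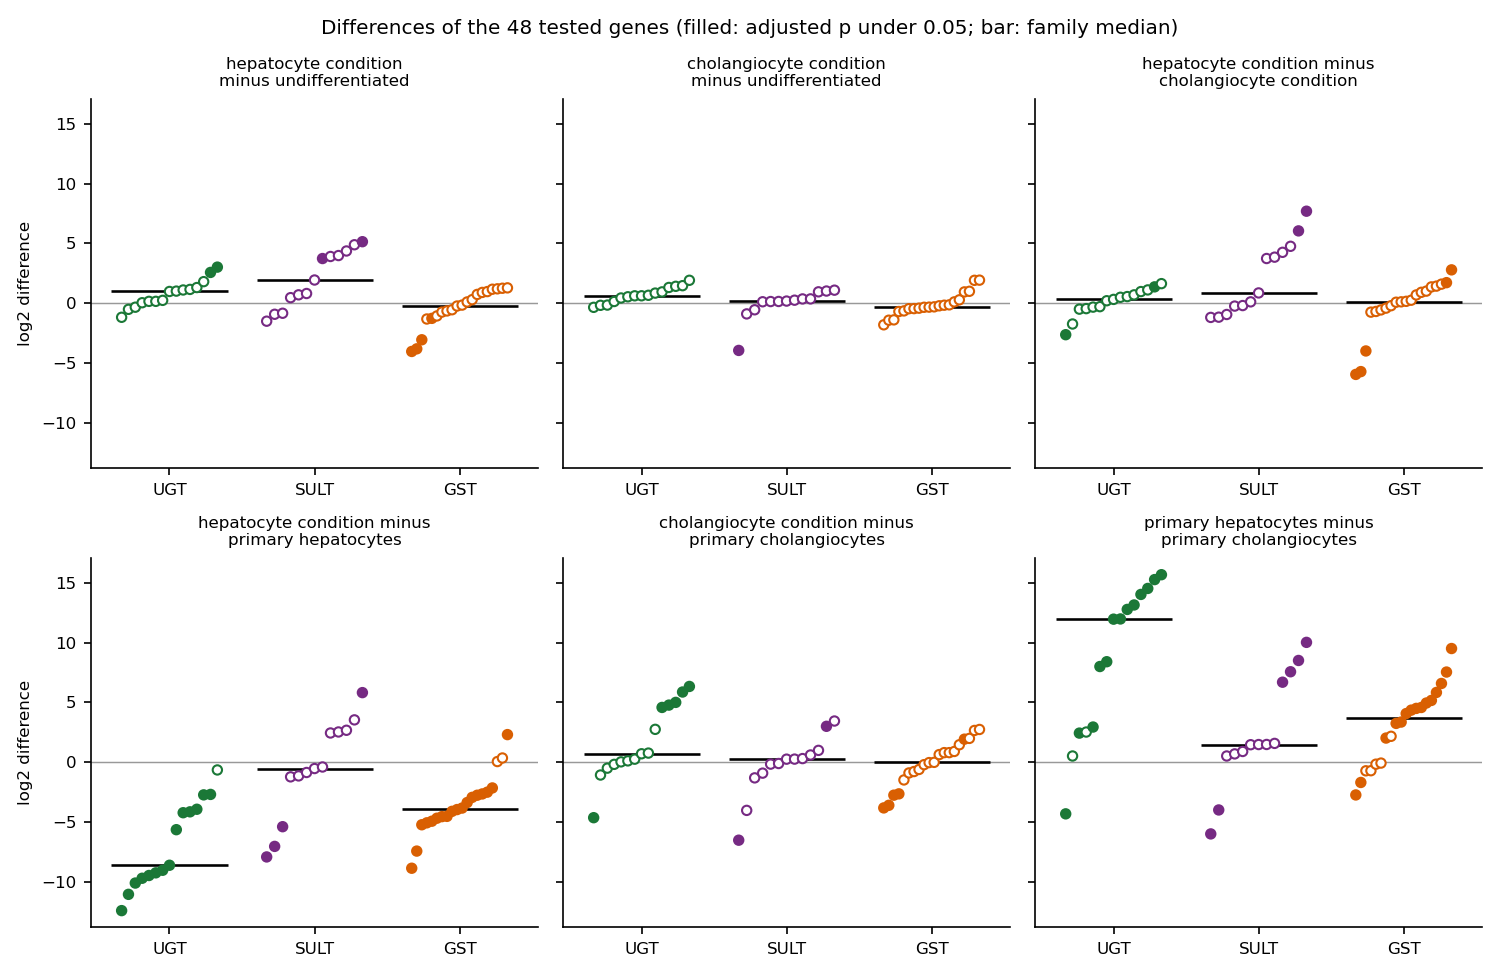
Log2 differences (vertical axis) of each tested gene, by family, in 6 comparisons named above the panels; filled circles passed at an adjusted p under 0.05 and bars are family medians. Most UGT and GST genes lie below 0 for the hepatocyte condition against primary hepatocytes, with medians of -8.63 and -3.91, while 1 gene, Sult1a1, is filled for the cholangiocyte condition against undifferentiated cells.

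The UGT2B enzymes glucuronidate steroids, bile acids and many drugs, and their genes lie together on chromosome 5. Ugt2b1 was at -7.79, -6.68, -7.59 and -8.97 in the hepatocyte condition, where 1 of 4 arrays was well above background, against 4.25, 4.74, 4.91 and 4.78 in primary hepatocytes, and in the cholangiocyte condition, undifferentiated cells and primary cholangiocytes no array was well above background. It thus separated primary hepatocytes from all other arrays without overlap. The fitted difference between the hepatocyte condition and primary hepatocytes was -12.43 ± 0.39 (limma, adjusted p = 7.95e-12). That size rests mostly on background readings of the hepatocyte condition and is not measured. Primary hepatocytes exceeded primary cholangiocytes at least 5418-fold (adjusted p = 3.55e-11, means of 4.67 and -9.36). Between the hepatocyte and cholangiocyte conditions Ugt2b1 passed with a difference of 1.36 ± 0.43 (adjusted p = 0.0433), but the means were -7.76 and -9.12, with no array of the cholangiocyte condition above background; the call was lost in 15 of 28 alternatives, and the sign turned under another background correction.

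Ugt2b5, another member of this cluster, kept a signal in culture. It read -0.67, -2.32, -2.91 and -5.00 in the hepatocyte condition, while the cholangiocyte condition read -3.58, -2.73 and -4.76 and undifferentiated cells -3.00, -2.11, -4.11 and -6.07, against 6.73 to 7.29 in primary hepatocytes and not well above background in primary cholangiocytes. The cultured groups overlapped each other and lay between the primary types. The hepatocyte condition was lower than primary hepatocytes by a difference of -9.72 ± 0.90 (adjusted p = 5.1e-07), and the cholangiocyte condition was at least 14.6-fold above primary cholangiocytes (adjusted p = 0.00801; means of -3.69 and -8.69); without array 3 of the primary cholangiocytes its adjusted p was 0.0841. Primary hepatocytes were at least 23920-fold above primary cholangiocytes (adjusted p = 4.74e-08).

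The probes of this cluster resemble one another, and the letters of those for Ugt2b5 and Ugt2b37 are printed to show how far. Both are 60 bases, designed to genes on chromosome 5, and share 55 aligned positions with 9 mismatches; capitals mark bases that differ from the other probe.
Ugt2b5: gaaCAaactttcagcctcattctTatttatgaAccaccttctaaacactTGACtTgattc
Ugt2b37: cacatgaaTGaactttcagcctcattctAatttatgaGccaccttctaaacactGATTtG
The array design also lists the probe of Ugt2b36 for Ugt2b37, so the shares of these paralogs in each other's signal are uncertain.

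The other UGT2B genes repeated the pattern with different floors. Ugt2b34 was bright in every cultured group: it was at 3.66, 4.0, 3.48 and 3.20 in the hepatocyte condition and at 3.36, 2.89 and 3.05 in the cholangiocyte condition, against 3.64, 2.55, 1.47 and -0.50 in undifferentiated cells, 6.04 to 6.59 in primary hepatocytes and -0.98 and -2.36 in primary cholangiocytes. Its difference was -2.74 ± 0.63 for the hepatocyte condition against primary hepatocytes (adjusted p = 0.00195) and 4.77 ± 0.82 for the cholangiocyte condition against primary cholangiocytes (adjusted p = 0.00112), so both cultures differed from their primary cells, in opposite directions. Against undifferentiated cells the hepatocyte condition differed by 1.79 ± 0.63 (adjusted p = 0.071), which did not pass. Of the 15 UGT genes, 5 rose in the cholangiocyte condition against primary cholangiocytes, Ugt2b34, Ugt2b35, Ugt2b36, Ugt2b38 and Ugt2b5, and 1 fell, with 12.2% of all gene names rising and 7.69% falling. The largest of the 5 was Ugt2b36, at least 36.3-fold higher in the cholangiocyte condition (adjusted p = 0.000215; means of -2.31 and -8.63).

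Only 2 UGT genes passed between the hepatocyte condition and undifferentiated cells. Ugt2a3 was at -4.45, -3.78, -5.10 and -5.77 in the hepatocyte condition and at -7.29, -6.72, -8.71 and -8.41 in undifferentiated cells, where 1 of 4 arrays was well above background. The groups did not overlap and the difference was 3.01 ± 0.68 (adjusted p = 0.00827), a size that rests mostly on background readings of undifferentiated cells. The hepatocyte condition still remained below primary hepatocytes by a difference of -10.12 ± 0.68 (adjusted p = 1.98e-08). Ugt2b35 was at -1.39, -1.19, -1.57 and -2.82 in the hepatocyte condition and at -2.66, -3.37, -3.59 and -7.61 in undifferentiated cells. Its difference of 2.56 ± 0.82 passed narrowly (adjusted p = 0.047), did not pass in 19 of 28 alternatives, where the adjusted p reached 0.156, and was -0.16 within 1 of the 3 slides that held both groups.

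The UGT1 genes share their last exons and differ in the first, so a probe in the shared part reads several of them. The brighter Ugt1a6b probe is of that kind, listed by the array design also for Ugt1a10, Ugt1a6a and Ugt1a7c. It read 4.61, 3.33, 4.93 and 3.46 in the hepatocyte condition and 7.84, 7.95, 8.02 and 8.31 in primary hepatocytes, a difference of -3.95 ± 0.59 (adjusted p = 5.16e-05). The same probe read 3.31 to 6.61 on the 9 arrays of the cholangiocyte condition, undifferentiated cells and primary cholangiocytes. Ugt1a10 was at -3.80, -4.03, -3.29 and -2.92 in the hepatocyte condition and at -0.30, -0.20 and -2.09 in the cholangiocyte condition. These groups did not overlap, and the hepatocyte condition was lower by a difference of -2.64 ± 0.82 (adjusted p = 0.0417), a call that did not pass in 14 of 28 alternatives (adjusted p up to 0.15).

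Ugt8a ran against its family. Its enzyme uses UDP-galactose and ceramide to make galactosylceramide, a sphingolipid of myelin and some epithelia. It read -5.52 or less on all arrays of the other groups, of which 5 were well above background, against -2.78 and -3.30 in primary cholangiocytes. The difference was -4.65 ± 0.97 for the cholangiocyte condition against primary cholangiocytes (adjusted p = 0.00419) and -4.33 ± 0.92 for primary hepatocytes against primary cholangiocytes (adjusted p = 0.00135). Both sizes rest mostly on background readings of the dimmer group. Ugt3a2, whose human counterpart uses UDP-glucose and UDP-xylose, was at -6.97 to -5.07 in the hepatocyte condition and at 4.86 to 5.65 in primary hepatocytes, a difference of -11.06 ± 0.69 (adjusted p = 8.88e-09).

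**Figure D3:**
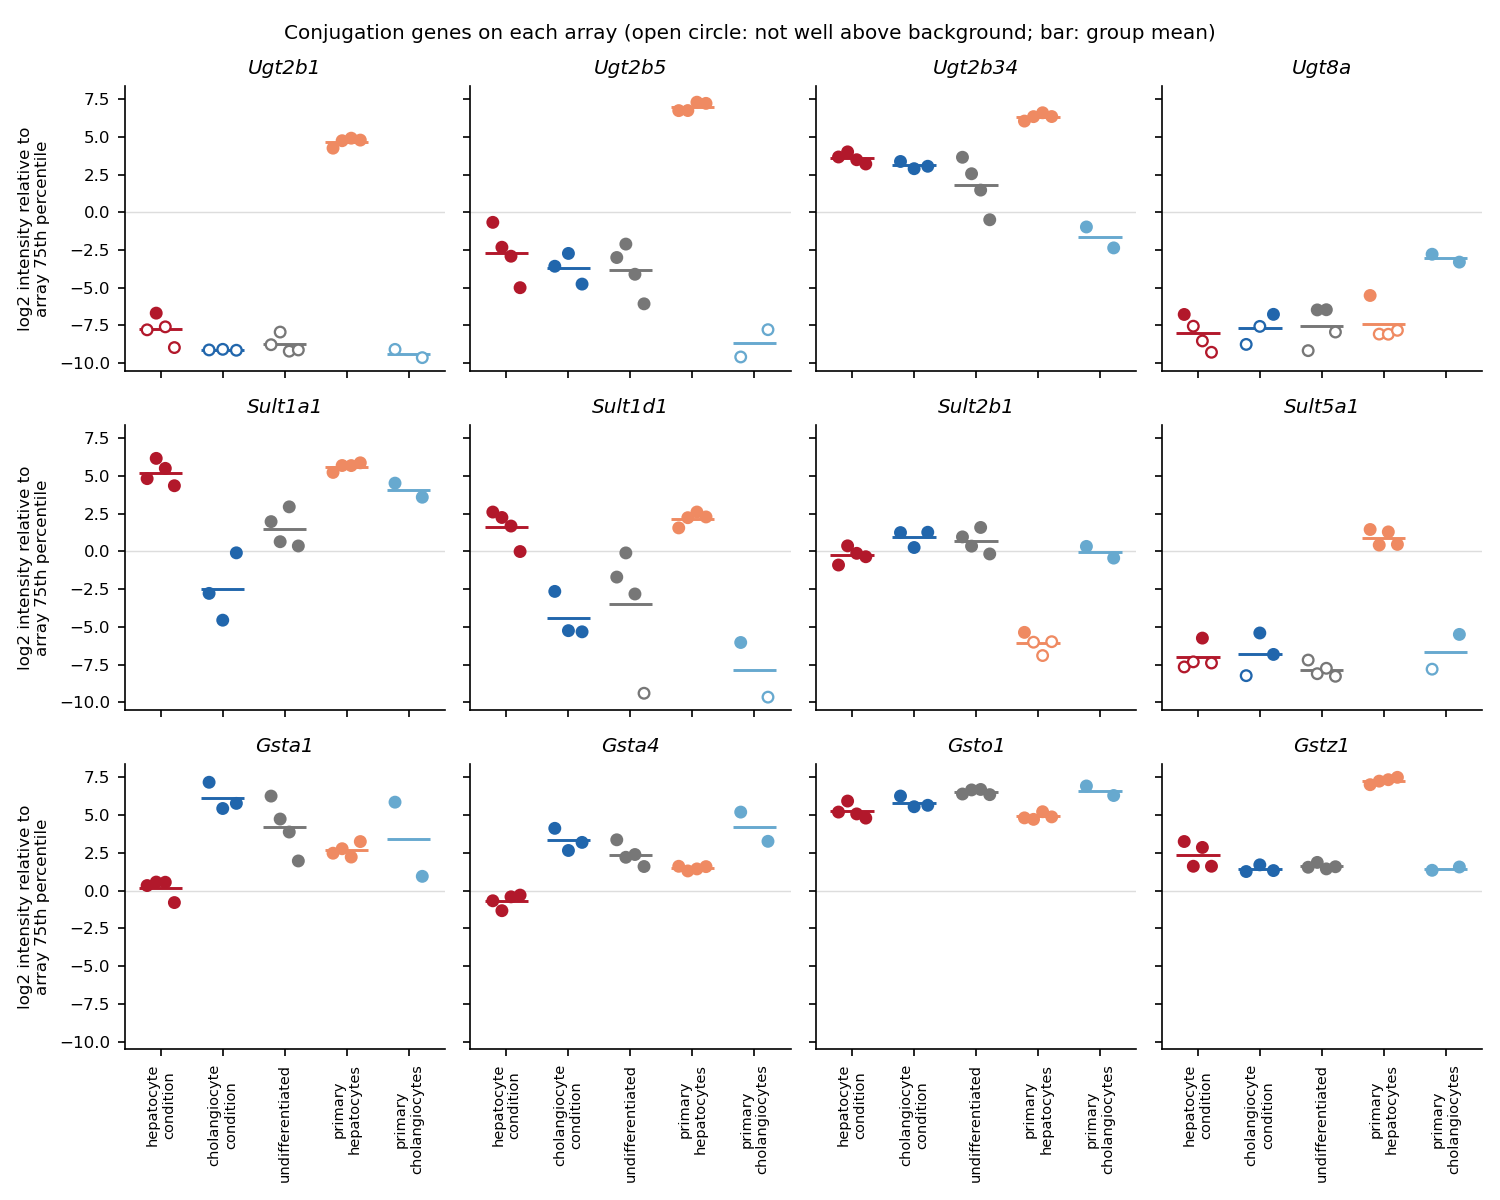
Log2 intensity relative to the array's 75th percentile (vertical axis) of 12 genes, 4 per family from top to bottom, on each array of the 5 groups; open circles were not well above background and bars are group means. Ugt2b1 and Sult5a1 are high in primary hepatocytes alone, Sult1a1 in the hepatocyte condition is at the level of primary hepatocytes, and Gsta1 and Gsta4 are lower in the hepatocyte condition than in both other cultured groups.

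Among the sulfotransferases, Sult1a1, the main phenol sulfotransferase of liver, moved in opposite directions in the 2 differentiation conditions. It was at 4.82, 6.17, 5.50 and 4.35 in the hepatocyte condition, at -2.78, -4.55 and -0.09 in the cholangiocyte condition and at 1.97, 0.64, 2.95 and 0.36 in undifferentiated cells. None of these groups overlapped. It rose in the hepatocyte condition by 3.73 ± 0.79 (adjusted p = 0.00541) and fell in the cholangiocyte condition by 3.96 ± 0.85 (difference -3.96; adjusted p = 0.0392) relative to undifferentiated cells. The rise passed in all 28 alternatives, and the fall did not pass in 14 of 28, with an adjusted p of up to 0.248. Between the conditions the difference was 7.69 ± 0.85 (adjusted p = 6.47e-05), and it was 6.26, 10.06 and 7.60 within the 3 slides that held both.

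Set against primary cells, Sult1a1 in the hepatocyte condition lay near the primary hepatocytes. Primary hepatocytes read 5.24, 5.69, 5.69 and 5.87, and the difference of the hepatocyte condition from them was -0.41 ± 0.79 with a 95% confidence interval from -2.10 to 1.28 (adjusted p = 0.669). Primary cholangiocytes read 4.52 and 3.59, so the cholangiocyte condition lay below them by a difference of -6.53 ± 1.02 (adjusted p = 0.00054). The 2 primary types did not differ past the threshold (1.56 ± 0.96, adjusted p = 0.192), and the difference of differences between culture and primary cells, 6.12 ± 1.29, passed (adjusted p = 0.00187). A second Sult1a1 probe followed the first across the 17 arrays (r = 0.999).

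Sult1d1 encodes an enzyme that sulfates catecholamines and other small phenols in the mouse. It read 2.61, 2.25, 1.68 and -0.01 in the hepatocyte condition. The cholangiocyte condition read -2.65, -5.25 and -5.33, and undifferentiated cells -1.70, -0.10, -2.82 and -9.40, the last of these not well above background. Primary hepatocytes read 1.56, 2.24, 2.61 and 2.29, so 3 of 4 arrays of the hepatocyte condition were in their range. The difference from undifferentiated cells was 5.14 ± 1.54 (adjusted p = 0.0349), with an adjusted p of 0.119 when only those groups were fitted and 0.0705 with the slide as a block. Against the cholangiocyte condition it was 6.04 ± 1.66 (adjusted p = 0.024), and primary hepatocytes exceeded primary cholangiocytes by 10.02 ± 1.89 (adjusted p = 0.000513), with 1 of 2 primary cholangiocyte arrays well above background.

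The Sult2a genes, on chromosome 7, encode hydroxysteroid sulfotransferases that act on steroids such as DHEA and on bile acids, and in mouse liver they are known as predominantly female. Sult2a1 read 1.20, -9.68, -0.998 and -9.43 on arrays 1 to 4 of the hepatocyte condition, and only arrays 1 and 3 were well above background. In primary hepatocytes it read -8.75, -8.08, -8.39 and -7.81, none of them well above background, and no array of the other 3 groups was either. Sult2a2 (-0.28 and -1.89), Sult2a4 (-0.25 and -2.51) and Sult2a6 (0.01 and -2.51) were likewise bright on arrays 1 and 3 and at background on arrays 2 and 4 and in primary hepatocytes. These 3 genes were chosen after their values were seen. The probe behind the Sult2a6 values is listed by the array design also for Sult2a1 and Sult2a5. A probe listed for Sult2a6 alone had a mean of -8.57 in the hepatocyte condition. It was well above background on 1 of those 4 arrays.

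The 2 arrays that carried Sult2a signal were those with Alb at 7.63 and 7.58. On them Gstt1, a theta class enzyme, read 3.87 and 4.22 against -1.18 and -1.24 on arrays 2 and 4, and Sult1e1, the oestrogen sulfotransferase, read -4.50 and -4.08 against values below background. Sult1a1 and Gsta1 were not split in this way. Array 1 of the undifferentiated cells had Alb at 6.00, but Sult2a1 was not well above background there. None of the 4 Sult2a genes passed. For Sult2a1 the means of the hepatocyte condition and undifferentiated cells were -4.73 and -9.61 (adjusted p = 0.0939). The adjusted p was 0.0241 and 0.0273 when array 2 or 4 of the hepatocyte condition was left out. Against primary hepatocytes, with a mean of -8.26, the adjusted p was 0.117. Sult2a1 passed there in 4 alternatives: without array 2 or 4 of the hepatocyte condition (adjusted p = 0.0198 and 0.0249), under quantile normalization (0.0379) and in the authors' deposited table (0.0022). The mean of -4.73 averages the bright arrays 1 and 3 with background readings on arrays 2 and 4, so no fold is given. Arrays 2 and 4 read below every primary hepatocyte array. The Y-linked transcript Eif2s3y and both probes of Uty were well above background on all 17 arrays and Ddx3y on 14, whereas the 2 probes of Xist, which is transcribed from the inactive X of female cells, were on 0 and 1. The part of animal sex in the Sult2a values was not tested.

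Probes of 3 Sult2a genes are printed because their likeness bears on reading these genes apart. Each has 60 bases. Sult2a1 and Sult2a4 share 54 aligned positions with 3 mismatches, and Sult2a1 and Sult2a2 share 59 with 5; capitals mark bases that differ between Sult2a1 and Sult2a4 in the first and second line, and between Sult2a2 and Sult2a1 in the third.
Sult2a1: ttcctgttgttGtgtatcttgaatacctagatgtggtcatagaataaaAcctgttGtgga
Sult2a4: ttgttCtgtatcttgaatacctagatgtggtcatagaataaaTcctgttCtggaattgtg
Sult2a2: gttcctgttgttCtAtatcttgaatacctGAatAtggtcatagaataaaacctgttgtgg
Which of these genes gave the signal on arrays 1 and 3 is therefore uncertain.

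**Figure D4:**
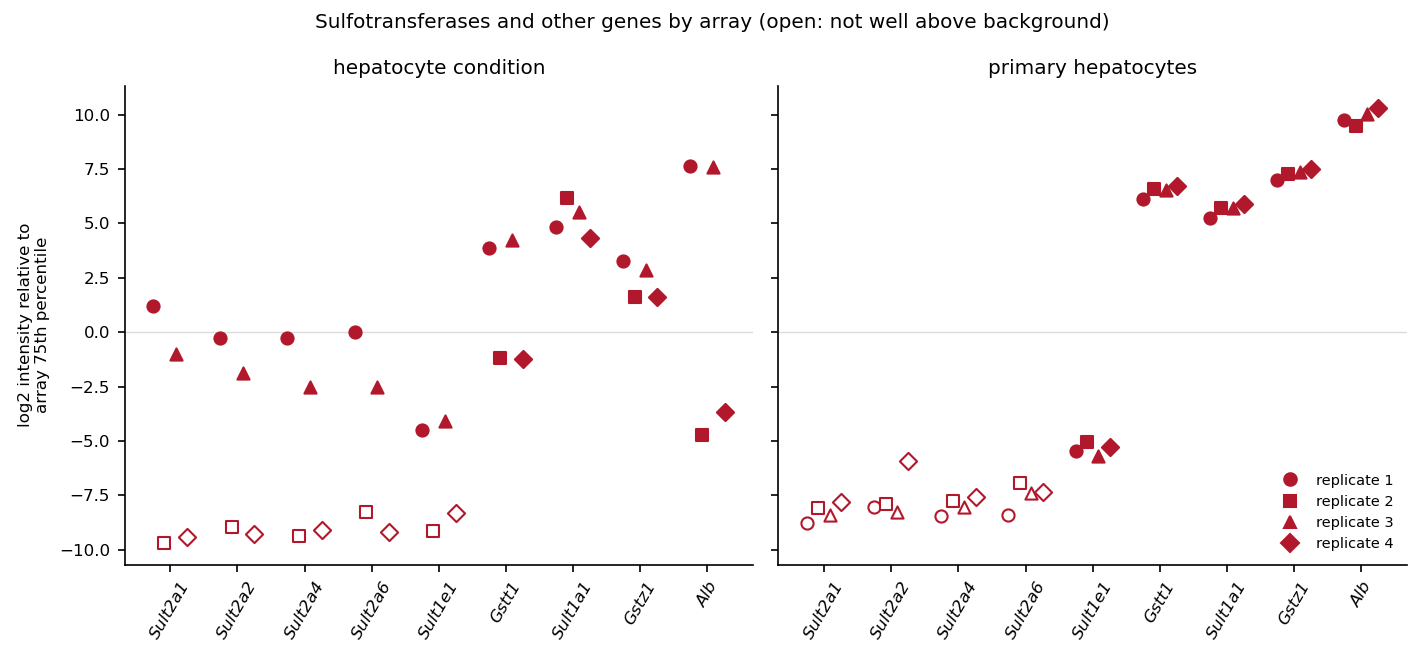
Log2 intensity relative to the array's 75th percentile (vertical axis) of 8 members and albumin (Alb) in the 4 arrays of the hepatocyte condition (left) and the 4 of primary hepatocytes (right), with a symbol for each replicate; open symbols were not well above background. By the probe counted for each gene, Sult2a1, Sult2a2, Sult2a4, Sult2a6, Sult1e1, Gstt1 and Alb are high on replicates 1 and 3 of the hepatocyte condition. They are low on 2 and 4, and primary hepatocytes lack the signal of these Sult2a probes.

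Of the remaining sulfotransferases, Sult2b1, which sulfates cholesterol and pregnenolone and is known from skin and other epithelia, was high where hepatocytes were not. It was at -0.90, 0.37, -0.12 and -0.35 in the hepatocyte condition and at -5.36, -6.01, -6.90 and -5.98 in primary hepatocytes, of which 1 was well above background, against 0.33 and -0.44 in primary cholangiocytes. The hepatocyte condition exceeded primary hepatocytes by 5.81 ± 0.42 (adjusted p = 4.37e-08), and primary hepatocytes lay below primary cholangiocytes by a difference of -6.01 ± 0.52 (adjusted p = 3.58e-07). The reverse held for Sult5a1 and Sult2a7. Sult5a1 was at -7.65, -7.32, -5.74 and -7.39 in the hepatocyte condition, where 1 of 4 arrays was well above background, and at 0.42 to 1.45 in primary hepatocytes (difference -7.93 ± 0.62, adjusted p = 9.19e-08). Sult2a7 differed by -7.05 ± 0.55 in the same comparison (adjusted p = 9.65e-08), also with 1 of 4 arrays of the hepatocyte condition well above background. For Sult2b1, Sult5a1 and Sult2a7 the dimmer group was thus mostly at background, and the size of these differences is not measured.

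Sult1b1, which sulfates thyroid hormones, was measured on all arrays. It was at -1.79, -1.82, -2.55 and -2.99 in the hepatocyte condition and at 2.78, 3.19, 3.14 and 3.36 in primary hepatocytes (difference -5.41 ± 0.57, adjusted p = 1.75e-06). The cholangiocyte condition, at -1.97, -2.18 and -3.02, lay above primary cholangiocytes, at -3.65 and -7.12, with a difference of 2.99 ± 0.73 (adjusted p = 0.0105); without array 4 of the primary cholangiocytes the difference was 1.26 (adjusted p = 0.138). Sult4a1, a sulfotransferase relative of the brain, was at -2.29, -3.25, -3.01 and -2.33 in primary hepatocytes, against 1.41 and 1.15 in primary cholangiocytes, a difference of -4.00 ± 1.49 (adjusted p = 0.0377) that did not pass when any 1 array of either group was left out (adjusted p between 0.0518 and 0.136).

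Of the 4 glutathione S-transferase genes that fell in the hepatocyte condition against undifferentiated cells, Gsta1, Gsta2 and Gsta4 are of the alpha class. Gsta1 was at 0.34, 0.57, 0.56 and -0.79 in the hepatocyte condition, at 7.18, 5.44 and 5.78 in the cholangiocyte condition and at 6.26, 4.74, 3.88 and 1.97 in undifferentiated cells. The hepatocyte condition lay below every array of both other cultured groups, with a difference of -4.05 ± 0.96 from undifferentiated cells (adjusted p = 0.0104) and of -5.97 ± 1.03 from the cholangiocyte condition (adjusted p = 0.00161). Both passed in all 28 alternatives, and within slides the first was -4.18, -7.05 and -3.55. Primary hepatocytes read 2.48, 2.78, 2.23 and 3.25, above the hepatocyte condition as well (difference -2.52 ± 0.96, adjusted p = 0.0355), a call that was lost in 6 of 28 alternatives, with an adjusted p of 0.0633 under quantile normalization. The 2 primary cholangiocyte arrays were far apart, at 5.86 and 0.95, and neither comparison of Gsta1 with them alone passed. Without the second, primary hepatocytes differed from the first by -3.18 (adjusted p = 0.0398), and without the first they differed from the second by 1.74 (adjusted p = 0.243), while the cholangiocyte condition exceeded it by 5.19 (adjusted p = 0.0103). In these fits 1 array stands for the group, and its spread is taken from the other groups.

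The probe of Gsta2 is close to that of Gsta1, and both are printed so that the shared signal can be judged. The 2 probes, of 60 bases, belong to genes on chromosome 9 and share 50 aligned positions with 4 mismatches, marked in capitals.
Gsta1: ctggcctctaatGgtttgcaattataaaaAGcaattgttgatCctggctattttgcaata
Gsta2: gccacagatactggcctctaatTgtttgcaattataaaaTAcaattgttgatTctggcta
Gsta2 gave a similar order in culture, with -0.48, -0.51, -0.08 and -1.73 in the hepatocyte condition, against 5.16, 3.68, 2.82 and 0.85 in undifferentiated cells (difference -3.83 ± 0.95, adjusted p = 0.0137). In primary hepatocytes it read 4.32 to 4.80, further above the hepatocyte condition than Gsta1 (difference -5.24 ± 0.95, adjusted p = 0.000294). The values of these paralogs are uncertain to the extent that each probe binds the other transcript.

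Gsta4, whose enzyme clears the lipid peroxidation product 4-hydroxynonenal, has a probe without such a near copy among the members. It was at -0.67, -1.33, -0.41 and -0.30 in the hepatocyte condition, at 4.13, 2.66 and 3.20 in the cholangiocyte condition and at 3.37, 2.21, 2.39 and 1.60 in undifferentiated cells. The hepatocyte condition lay below every other array of the series, with differences of -3.07 ± 0.45 from undifferentiated cells (adjusted p = 0.000519) and -4.00 ± 0.48 from the cholangiocyte condition (adjusted p = 0.000123). Primary hepatocytes, at 1.30 to 1.61, lay below primary cholangiocytes, at 5.20 and 3.27 (difference -2.75 ± 0.55, adjusted p = 0.000809). Gsto1, an omega class enzyme with thiol transferase activity, was at 5.21, 5.94, 5.08 and 4.81 in the hepatocyte condition and at 6.40, 6.67, 6.70 and 6.36 in undifferentiated cells (difference -1.28 ± 0.25, adjusted p = 0.00328). It then lay 0.34 ± 0.25 from primary hepatocytes (adjusted p = 0.246; 95% confidence interval from -0.19 to 0.87), although quantile normalization gave 0.86 (adjusted p = 0.0106).

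Gsta3 went the other way from its class. It was at 6.33, 5.81, 5.22 and 5.80 in the hepatocyte condition and at 4.04, 4.47 and 0.52 in the cholangiocyte condition, without overlap (difference 2.78 ± 0.76, adjusted p = 0.0231; 1.54 with an adjusted p of 0.0702 without array 3 of the cholangiocyte condition, and 0.0649 with the slide as a block). Gstm1, the main mu class enzyme of mouse liver, was at 5.25, 4.85, 6.42 and 4.56 in the hepatocyte condition and at 3.14, 3.72 and 3.82 in the cholangiocyte condition (difference 1.71 ± 0.50, adjusted p = 0.0324, and 0.0773 with the slide as a block). Primary hepatocytes were at 7.83 to 8.65 for Gstm1 and exceeded primary cholangiocytes, at 2.35 and 0.93, by 6.58 ± 0.57 (adjusted p = 3.67e-07).

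Genes of the theta, zeta and mu classes were also far below primary hepatocytes. Gstt2 was at -4.61, -5.90, -5.21 and -6.67 in the hepatocyte condition and at 2.99, 3.31, 3.36 and 3.46 in primary hepatocytes (difference -8.88 ± 0.56, adjusted p = 1.01e-08). Gstz1, which isomerises maleylacetoacetate in tyrosine breakdown, was at 3.25, 1.61, 2.86 and 1.62 in the hepatocyte condition and at 7.02 to 7.51 in primary hepatocytes; primary hepatocytes exceeded primary cholangiocytes, at 1.35 and 1.57, by 5.83 ± 0.39 (adjusted p = 2.73e-08). Gstm6 differed by -7.45 ± 1.30 and Gstt1 by -5.08 ± 1.39 between the hepatocyte condition and primary hepatocytes (adjusted p = 0.000207 and 0.00605). None of these 4 genes passed between the hepatocyte condition and undifferentiated cells. The omega gene Gsto2 was the GST gene that was higher in the hepatocyte condition, at -1.58, -1.25, -1.39 and -1.38 against -3.92, -3.18, -4.27 and -3.43 in primary hepatocytes (difference 2.30 ± 0.38, adjusted p = 0.000123).

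The cholangiocyte condition was set against primary cholangiocytes in the same way, where 7.69% of all gene names fell and 12.2% rose. Of 20 GST genes 4 fell, Gstt2 (-3.83 ± 0.73, adjusted p = 0.00223), Gstm2 (-3.62 ± 0.91), Gstk1 (-2.77 ± 0.80) and Gstt3 (-2.66 ± 0.79), and Gstm1 rose (1.92 ± 0.60, adjusted p = 0.0369). Gstm2 was at 1.02, 2.27 and -1.49 in the cholangiocyte condition and at 5.19 and 3.24 in primary cholangiocytes. Apart from Gstt2, each of these calls was lost in 4 to 7 of 28 alternatives, among them leaving out array 3 of the primary cholangiocytes for Gstk1, Gstm2 and Gstt3. With 2 arrays in that group, these counts depend on each of them. They moved with other arrays too: 7 members fell without array 3 of the cholangiocyte condition, against 6 with all arrays.

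Between the primary types, conjugation genes leaned to hepatocytes. Of 48 genes 29 were higher in primary hepatocytes (12 UGT, 4 SULT and 13 GST) and 5 lower, with 28% of all gene names higher and 21.7% lower. The medians were 11.96 for UGT, 1.47 for SULT and 3.70 for GST against 0.35 for all genes, and the UGT median was 11.65 with genes at background put at their bounds. Of the 13 SULT genes tested, 3 were well above background on no array of either primary type. Sult2a1, whose value is the SULT median, was among them, so the size of that median is not measured. This comparison shares the primary hepatocyte arrays with the one above. Of the 29 genes, 3 rose in the hepatocyte condition against undifferentiated cells, which shares no array with it: Ugt2a3, Ugt2b35 and Sult1d1, and 7.8% of all gene names rose there, so this count is near the background. Some markers of other cells moved with this comparison too: endothelial markers were higher in primary hepatocytes than in primary cholangiocytes for 6 of 7 genes and red blood cell markers for 2 of 2 tested. Leukocyte and Kupffer cell markers were mixed, with 4 of 11 higher in primary hepatocytes and 2 lower. Of 6 stellate and fibroblast markers 2 were higher and 0 lower. In primary hepatocytes the mean endothelial level was -1.78 to -1.21, against -5.30 and -4.00 in primary cholangiocytes. The part of these other cells in the differences was not tested.

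The difference between the lineages in culture and that between the primary types rest on separate arrays. Between the hepatocyte and cholangiocyte conditions 5 of 48 genes were higher and 4 lower, with 7.16% of all gene names higher and 8.61% lower, and the primary types gave 34 calls. The calls shared 5 genes with the same direction, Gsta3, Gsta4, Gstm1, Sult1d1 and Ugt2b1, which are 55.6% of the calls in culture and 14.7% of those in primary cells, and none was opposite. Over all gene names the same shares were 46.5% and 14.8%, so the members' overlap was near that of all genes. Of the 5 calls in culture, Ugt2b1 was lost in 15 of 28 alternatives, Gstm1 in 7, and Gsta3 and Sult1d1 in 4 each. The difference of differences was lower in culture for 28 of 48 genes and higher for 4, with 22.3% of all gene names lower and 15.6% higher. Gsta1 was among the 28: its difference was -5.97 in culture and -0.72 in primary cells (difference of differences -5.25 ± 1.56, adjusted p = 0.0167, and 0.137 without array 4 of the primary cholangiocytes).

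**Figure D5:**
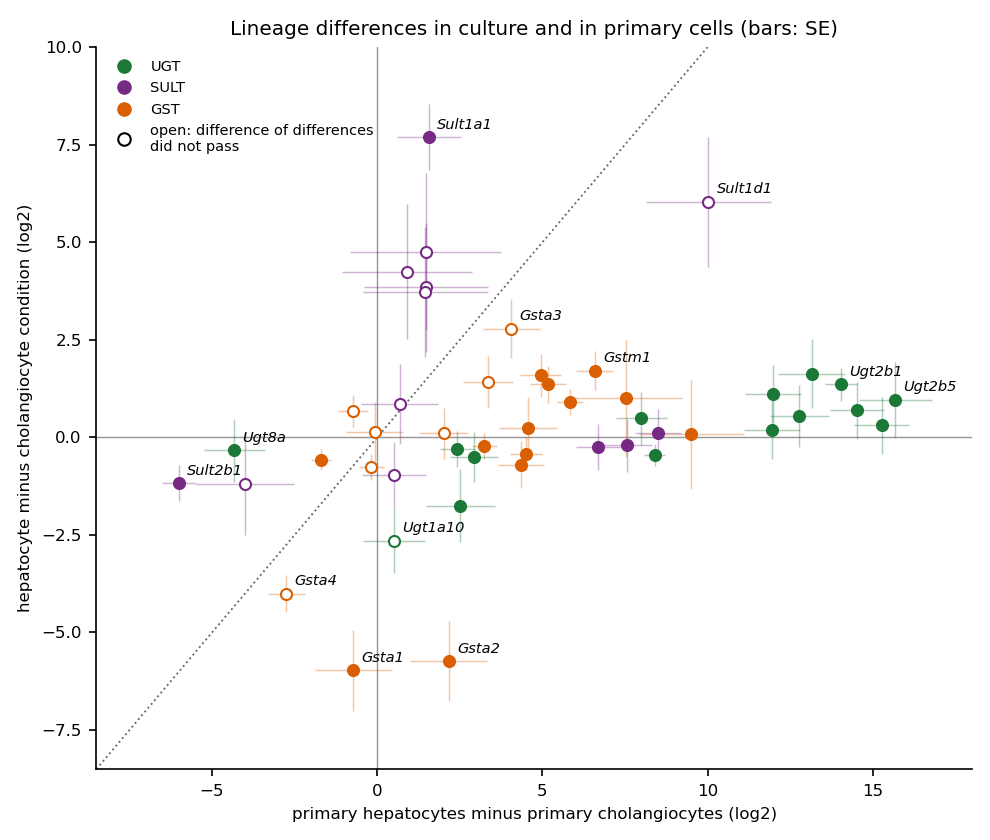
Log2 difference of the hepatocyte minus the cholangiocyte condition (vertical axis) against that of primary hepatocytes minus primary cholangiocytes (horizontal axis) for 48 genes coloured by family, with standard errors; the dotted line marks equal differences and open circles did not pass for the difference of differences. UGT genes spread far to the right near 0 on the vertical axis, Sult1a1 stands above the line (7.69 against 1.56) and Gsta1 and Gsta2 stand far below it.

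Genes around the conjugation reactions were counted by lists. Of 17 NRF2 targets outside the members, 9 fell and 0 rose in the hepatocyte condition against undifferentiated cells, where 7.91% of all gene names fell and 7.8% rose (median -0.73, against 0.08 over all genes), among them Nqo1 (-4.50 ± 0.78, adjusted p = 0.00154), a quinone reductase, and the cystine carrier Slc7a11 (-2.08 ± 0.54, adjusted p = 0.0167). Of 15 genes that supply UDP-glucuronic acid, PAPS or glutathione, 2 fell there, Ugdh, which makes UDP-glucuronic acid (-1.33 ± 0.34, adjusted p = 0.015), and the glutathione reductase Gsr (-1.16 ± 0.24, adjusted p = 0.00485). Of 21 other conjugation enzymes 5 rose and 1 fell, among them Sulf1 (6.83 ± 0.77), a sulfatase that removes sulfate from heparan chains, and Inmt (4.46 ± 0.52), an N-methyltransferase. Of 15 regulators, Ppara (2.45 ± 0.56) and Rxra (1.23 ± 0.26) rose, and of 5 exporters of conjugates Abcc4 fell (-1.79 ± 0.34, adjusted p = 0.00286).

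Against primary hepatocytes the supply genes were lower for 9 of 15 in the hepatocyte condition and higher for 3, the other conjugation enzymes lower for 15 of 21 and higher for 4, the regulators lower for 10 of 15 and higher for 2, and the exporters lower for 4 of 5, with 33.7% of all gene names lower and 26% higher. The NRF2 targets outside the members leaned the other way from their fall against undifferentiated cells. Of 17, 7 were higher than in primary hepatocytes and 4 lower (median 0.38, against -0.33 over all genes). Abcc2, which pumps glucuronides and glutathione conjugates into bile, differed by -7.52 ± 1.23 (adjusted p = 0.000121), and Abcc4 by 6.79 ± 0.34 in the other direction (adjusted p = 8.78e-10). Mgst2, a membrane-bound enzyme related to leukotriene synthesis, was higher in the hepatocyte condition by 10.01 ± 0.80. In the cholangiocyte condition against primary cholangiocytes, 7 of 15 regulators rose and 0 fell, where 12.2% of all gene names rose, with Nr1h4, the bile acid receptor, at 3.79 ± 0.85 (adjusted p = 0.00635) and Hnf4a at 2.55 ± 0.58 (adjusted p = 0.00681), and Abcc2 at 10.15 ± 1.59 (adjusted p = 0.00058). The sizes for Mgst2 and Abcc2 were fitted without a bound for background and may rest on background readings. Of 5 exporters, 4 and 3 were well above background on arrays 3 and 4 of the primary cholangiocytes. Of the 21 other conjugation enzymes, 19 were on each primary hepatocyte array.

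Promoter letters were read for the members that RefSeq holds: 45 of 53 genes had at least 1 window of 250 bases before to 50 after the gene's start in GRCm38.p6. With the values above known, 4 motifs are described, each searched on both strands: TGACNNNGC for the antioxidant response element that NRF2 binds, AGGTCA repeated after 1 base and CAAAGTCCA for HNF4 and related receptors, and GCGTG for the AHR. A gene with several starts has several windows, which made 13 for UGT, 15 for SULT and 27 for GST genes. TGACNNNGC was in 3 of 27 GST windows (Gsta3, Gstm5 and Gstm7) and in 0 UGT or SULT windows, against 12.39% of 32851 windows of the same length. GCGTG was in 1 of 13 UGT windows (Ugt8a), 4 of 15 SULT windows (Sult1b1, Sult1d1 and Sult2b1) and 6 of 27 GST windows (Gsta1, Gsta2, Gstm1, Gstm5 and Gstp1), against 32.39%. CAAAGTCCA was in 1 of 15 SULT windows (Sult1b1), against 0.47%, and the repeat of AGGTCA was in 0 member windows, against 0.04%. A match is a description of letters only.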

How the data were processed

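Single-colour Agilent mouse arrays were read for 17 samples in 5 groups, taken from the labels. The deposited intensity values are the processed Cy3 signal of Agilent Feature Extraction, version 10.5.1.1 per the file headers and 9.53 per the submitters' processing notes, with local background subtracted. RNA was amplified and labelled after amplification, per the labels' protocols; amplification can change the relative level of dim transcripts. The authors' deposited table gives, for each comparison, a signed fold change (a score that is minus the inverse ratio where the ratio is under 1) and a false discovery rate in percent, per the column names, both read as scores; no test or scaling of that table is given in the sources used here, and it served as an alternative only. No per-sample column was left without a sample.

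From the files, control spots and spots flagged as outliers were left out, as were 135 probes whose every spot was flagged on at least 1 array. Remaining spots of a probe were averaged, and log2 intensity minus log2 of the array's 75th percentile over non-control probes was taken. Probes well above background on at least 2 of 17 arrays (32305) were fitted together with limma 3.58.1 in R 4.3.3 (lmFit, contrasts.fit, eBayes) with a mean per group, and p-values were adjusted by Benjamini-Hochberg over all of them in each of 6 comparisons and the difference of differences. A gene was counted by its probe of highest mean, and shares over all genes use 26039 gene names likewise. For a gene at background on every array of a group, "at least N-fold" sets the brighter mean against, per array, the higher of the dimmest signal well above background and the probe's own. Confidence intervals are at 95%, and the number of arrays limits their precision. The procedure was tested on simulated data.

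The members, marker lists and pathway lists were chosen with earlier results of these data known. Values are given for Ugt2b1, Sult1a1 and Gsta1. Others were taken from up to 4 passing genes per family, comparison and direction with the largest differences, well above background on every array of the brighter group, and from the largest difference that did not pass. Not every value that this rule allows is printed. Of other lists up to 2 genes per direction are named. Sult2a2, Sult2a4, Sult2a6, Ugt1a6b and the sex-linked genes fall outside this rule and were named after their values were seen. All 73 probes matched RefSeq by accession, with no changed symbol. Where a gene had several probes (17 genes), none passed in opposite directions, and the lowest correlation across 17 arrays was 0.32, for Sult2a6. Probe sequences are those of the array files, whose genome build is not given in the sources used here, and promoters are RefSeq's in GRCm38.p6. 1 regulator and what rests on it are not reported here. Alternatives were another scaling, normalization, background correction, probe filter and probe summary, the slide and the replicate number as blocks, only the groups compared, each array left out and the authors' table.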

Additional observations from a re-analysis of the deposited data

Results flagged for a closer look

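Of 108 groups of 4 arrays examined for a sample far from the others, 4 held one, and chance gives about 1 in 20. Gsta1 was at -0.79 on array 4 of the hepatocyte condition, against 0.34 to 0.57 on the other 3. Gstt3 was at 0.86 on array 1 of the hepatocyte condition, against -1.31 to -0.94, and at 4.61 on array 2 of the primary hepatocytes, against 3.65 to 3.80. Ugt8a was at -5.52 on array 1 of the primary hepatocytes, the one of the 4 on which it was well above background, against -8.08 to -7.82.

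The lineage difference was not the same in culture as in primary cells for 3 genes taken from the marker list. The difference of differences, hepatocyte minus cholangiocyte in culture less the same in primary cells, was 6.12 for Sult1a1 and -5.25 for Gsta1, past the threshold of the limma test of that difference (adjusted p = 0.00187 and 0.0167; for Gsta1 0.137 without array 4 of the primary cholangiocytes). The fitted value for Ugt2b1 was -12.67, but the gene was well above background on 1 of 4 arrays of the hepatocyte condition and on none of the cholangiocyte condition or primary cholangiocytes, so the value rests on background readings and its size is not measured.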

How the results depend on the processing

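Small counts moved most with the processing, and the causes were not tested beyond what each alternative changes. Members higher in the hepatocyte condition than in primary hepatocytes numbered 2, against 5 under quantile normalization and 7 in the authors' deposited table. Members that rose in the cholangiocyte condition against primary cholangiocytes numbered 7, against 11 after normexp background correction, and those that fell 6, against 2 when only the groups compared were fitted. For the hepatocyte condition against undifferentiated cells, 4 rose, against 2 with the slide as a block and 2 with only the groups compared. For the cholangiocyte condition against undifferentiated cells the 1 call, Sult1a1, became 0 with the slide as a block, with only the groups compared and in the authors' table. Between the hepatocyte and cholangiocyte conditions 5 were higher, against 3 with the slide as a block, 2 with only the groups compared and 8 with the replicate block. Ugt2b1 in that comparison reversed to -0.17 (limma, adjusted p = 0.616) after normexp.

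With 1 array left out, members that rose and fell numbered 2 to 10 and 4 to 5 for the hepatocyte condition against undifferentiated cells (lowest without array 3 of the undifferentiated cells, highest without array 4 of the hepatocyte condition), and 0 to 0 and 0 to 1 for the cholangiocyte condition against them. They numbered 2 to 6 and 33 to 34 against primary hepatocytes (6 without array 4 of the hepatocyte condition), 5 to 10 and 3 to 7 against primary cholangiocytes (5 without array 4 and 10 and 3 without array 3 of the primary cholangiocytes), and 1 to 10 and 3 to 4 between the conditions (1 without array 1 and 10 without array 4 of the hepatocyte condition). Between primary types they numbered 26 to 32 and 4 to 5, and for the difference of differences 3 to 4 and 23 to 32.

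Pairing was read from correlations between arrays of different groups, after each gene's group mean was taken away from its values. They describe what is left after the group means and not whole profiles. Over all groups together, replicate numbers gave no common pairing: 28 same-number pairs had a median correlation of -0.07, and 5 exceeded 0.1. Some cultured arrays did go together, in pairs picked after their values were seen. Undifferentiated arrays 1, 2 and 3 correlated with arrays 1, 2 and 3 of the cholangiocyte condition at 0.39, 0.28 and 0.32. Undifferentiated arrays 1, 2, 3 and 4 correlated with arrays 3, 1, 2 and 4 of the hepatocyte condition at 0.38, 0.44, 0.35 and 0.52. The main tests did not use such a pairing, and its source was not tested. Of 22 pairs on the same slide, with a median of 0.09, 10 exceeded 0.1, against a median of -0.03 for pairs on other slides. The replicate block changed no other count by over 1.5 times. Scaling to the median shifted the median of all genes by -0.26 and -0.20 for the hepatocyte and cholangiocyte conditions against undifferentiated cells, 0.19 against primary hepatocytes and -0.20 between primary types. Within each slide that held both groups, every called member kept its sign, except Ugt2b35 in 1 slide. Depth is set by signal over background, so UGT2B and SULT2A levels at background are bounds.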
